A study of Mus musculus with 70 samples.

Results

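Muscle mesenchymal stromal cells (MmSCs), the fibroblast-like stromal cells of skeletal muscle, were compared 2 h after an injection of oncostatin M (Osm) and 2 h after an injection of Il-1b, with no PBS library in the contrast. The comparison used 4 of the 70 libraries of the study, 2 for Osm and 2 for Il-1b, taken by their labels. Each library held RNA from 1000 MmSCs sorted by flow cytometry in a pair of successive rounds from uninjured hindlimb muscle of C57BL/6J mice that had received the cytokine into the peritoneum. The study injected 4 cytokines together, singly and in pairs to separate their effects on MmSCs, and the 2 h time was the one chosen for the single cytokines. The groups whose levels are given here were Osm alone (n = 2), Osm with Il-1b (n = 2), Il-1b alone (n = 2) and PBS (n = 2). All were of the same genotype and tissue. The spread behind the p-values was estimated from all 21 libraries of the cytokine experiment. Those also held TNFa, Il-17A, Osm with TNFa, Osm with Il-17A, and the 4 cytokines together at 2, 4 and 8 h. The labels do not give cytokine dose, mouse age or sex, the time after PBS or whether a library came from 1 mouse. The p-values thus measure only the spread between the libraries fitted.

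Osm is a cytokine of the Il-6 family. It binds a receptor made of Osmr and gp130, the shared chain encoded by Il6st, and the Janus kinases bound to the receptor phosphorylate Stat3 and other STATs, which enter the nucleus and switch on target genes including the inhibitor Socs3. Il-1b binds Il1r1 with Il1rap and signals through Myd88 and the Irak kinases to the Ikk complex, which frees NF-kB from its inhibitors. NF-kB then drives chemokine, adhesion and cytokine genes together with its own inhibitors, and in fibroblasts it is a main route to neutrophil and monocyte chemoattractants.

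The promoters of 7 genes of the contrast are shown, chosen because each holds letters that NF-kB or interferon-activated factors are known to bind. The 4 genes Cxcl1, Cxcl2, Il6 and Nfkbia were lower with Osm than with Il-1b, and their windows hold letters of NF-kB sites, GGG and TTCC with any 3 bases between them, on either strand. The 3 genes Ifit1, Ifit3 and Isg15 were higher with Osm, and their windows hold letters of the interferon-stimulated response element (ISRE), GAAA and GAAA with any 2 bases between them, on either strand. Sequences are from RefSeq (GRCm38.p6), run 5′ to 3′ on the strand of the gene and end before the gene's first annotated exon, with the matched letters in capitals (adjacent and overlapping matches merge). The windows are chr5:90890995-90891240 (+) for Cxcl1, chr5:90903649-90903870 (+) for Cxcl2, chr5:30012864-30013113 (+) for Il6, chr12:55492648-55492897 (-) for Nfkbia, chr19:34640639-34640870 (+) for Ifit1, chr19:34583279-34583528 (+) for Ifit3 and chr4:156200819-156201068 (-) for Isg15.
Cxcl1: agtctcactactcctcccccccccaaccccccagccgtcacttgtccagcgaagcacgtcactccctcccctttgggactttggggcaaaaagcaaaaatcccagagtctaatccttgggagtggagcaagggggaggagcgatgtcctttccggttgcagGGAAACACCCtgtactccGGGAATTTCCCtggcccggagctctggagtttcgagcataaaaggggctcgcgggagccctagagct
Cxcl2: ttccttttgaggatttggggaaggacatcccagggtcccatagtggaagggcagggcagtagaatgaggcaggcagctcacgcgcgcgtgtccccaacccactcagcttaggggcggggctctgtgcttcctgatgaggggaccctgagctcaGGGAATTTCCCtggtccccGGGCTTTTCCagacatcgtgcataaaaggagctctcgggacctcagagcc
Il6: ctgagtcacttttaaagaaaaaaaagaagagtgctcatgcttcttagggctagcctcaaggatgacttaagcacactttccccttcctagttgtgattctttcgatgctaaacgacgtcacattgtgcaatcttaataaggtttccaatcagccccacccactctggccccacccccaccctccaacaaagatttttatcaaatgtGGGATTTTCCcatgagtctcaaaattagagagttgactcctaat
Nfkbia: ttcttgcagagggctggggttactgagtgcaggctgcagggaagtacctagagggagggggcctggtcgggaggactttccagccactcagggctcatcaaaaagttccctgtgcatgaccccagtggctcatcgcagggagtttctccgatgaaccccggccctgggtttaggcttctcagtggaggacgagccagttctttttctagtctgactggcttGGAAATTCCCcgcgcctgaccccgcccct
Ifit1: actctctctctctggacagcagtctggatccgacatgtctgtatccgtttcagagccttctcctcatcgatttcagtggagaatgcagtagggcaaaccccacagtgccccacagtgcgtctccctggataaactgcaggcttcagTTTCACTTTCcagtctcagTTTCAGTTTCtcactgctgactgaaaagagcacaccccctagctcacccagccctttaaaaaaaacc
Ifit3: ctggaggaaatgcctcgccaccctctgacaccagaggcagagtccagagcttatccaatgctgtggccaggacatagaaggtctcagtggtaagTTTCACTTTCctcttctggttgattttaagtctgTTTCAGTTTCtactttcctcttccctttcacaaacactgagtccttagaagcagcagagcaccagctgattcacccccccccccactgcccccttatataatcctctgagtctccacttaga
Isg15: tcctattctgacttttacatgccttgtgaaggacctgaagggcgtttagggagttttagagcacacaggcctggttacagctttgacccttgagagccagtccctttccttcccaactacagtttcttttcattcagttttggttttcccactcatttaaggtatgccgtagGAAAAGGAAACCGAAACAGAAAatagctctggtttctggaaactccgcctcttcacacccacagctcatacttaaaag

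Distances are counted to the RefSeq start of the gene. In Cxcl1, Cxcl2 and Ifit1 this start lies beyond the end of the printed window, which stops at the first annotated exon. There the distances are longer than those to the window's end. The first NF-kB match began 89 bases before the RefSeq start in Cxcl1, 97 in Cxcl2, 44 in Il6 and 29 in Nfkbia. The ISRE matches began 104 and 85 bases before the RefSeq start in Ifit1, 156 and 122 in Ifit3, and 78, 72 and 66 in Isg15. Over the 250 bases before the start, both strands read, the NF-kB letters were found in 1434 of 27025 genes of the promoter table (5.31%) and the ISRE letters in 936 (3.46%). Among the NF-kB subunit and feedback genes described below, 14 of 17 had an entry and 8 of these held the NF-kB letters (57.1%). Among the NF-kB target effectors, 22 of 26 had an entry and 2 held them (9.09%). Shares are given only for lists with an entry for at least 80% of their genes. In the other such lists, 28.6% of STAT3 targets, 26.7% of Il-1 receptor and signalling genes and 21.4% of interferon regulators held the NF-kB letters. The share was 12.5% for antigen presentation, 5% for glycolysis, 4.76% for immediate-early and stress genes and 0% for gp130 receptors and JAK-STAT. Letters of NF-kB sites were thus not confined to the NF-kB lists. The interferon-inducible effectors (22 of 33) and all genes tested (11025 of 15965) fell short of this, so the share over the whole promoter table is the one given. A match is a description of the letters and not a measured site.

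Among 15965 genes tested, 1540 differed between Osm and Il-1b (9.65%), 630 higher with Osm (3.95%) and 910 lower with Osm (5.7%), at an adjusted p under 0.05 by edgeR's quasi-likelihood test with Benjamini-Hochberg adjustment. Interferon-inducible genes and Fgl2 stood at the higher end, and chemokines, NF-kB inhibitors and acute-phase genes at the lower end. A log2 change of at least 2 was found for 137 of the genes called higher and 283 of those called lower. The median log2 change was 1.17 over the genes called higher, -1.43 over those called lower and -0.01 over all genes tested. At an unadjusted p under 0.05 the count was 3243. Total counts were 5752684 to 7256795 in these 4 libraries, with 19862 to 20614 genes detected, and replicates differed by more than counting noise, with a chi-square per degree of freedom of 8.25 for Osm and 16.9 for Il-1b. Without the second Il-1b library 1010 genes were called, 573 of them lower with Osm, and without the first Osm library 593 genes were called lower. In such bulk libraries, fewer cells that express a gene and less RNA per cell cannot be told apart.

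**Figure D1:**
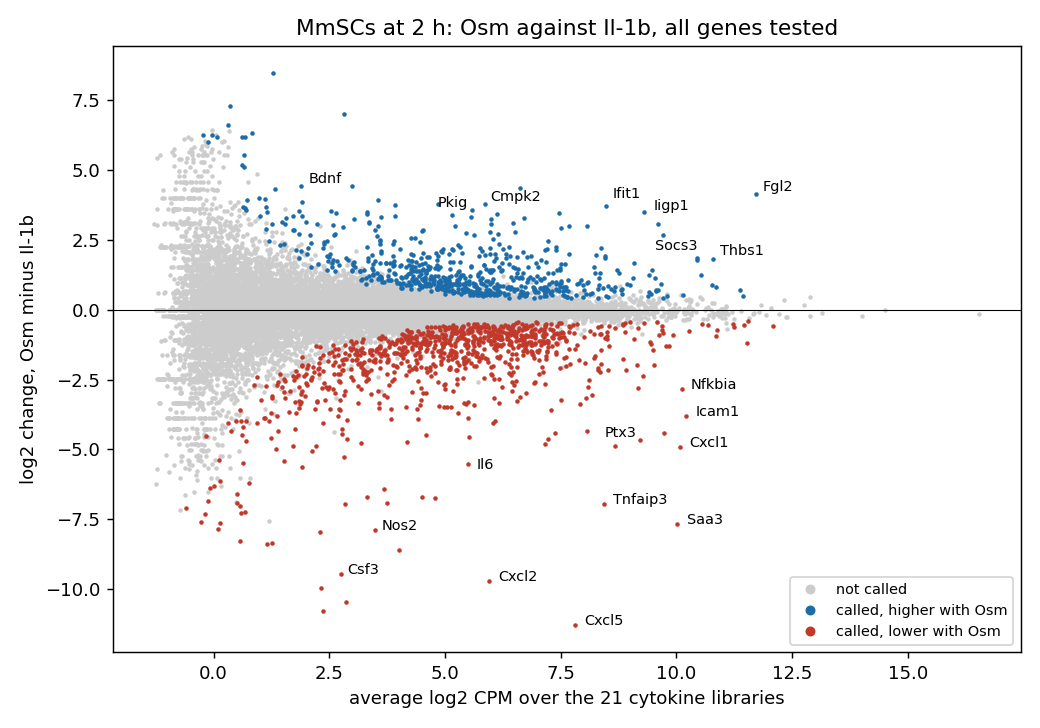
Each point is 1 of the 15965 genes tested, by its average log2 CPM over the 21 libraries of the cytokine experiment (x axis) and its fitted log2 change, Osm minus Il-1b (y axis). The 630 genes called higher with Osm are blue and the 910 called lower are red, and among the labelled genes the red ones reach -11.26 at Cxcl5 while the blue ones reach 4.42 at Bdnf.

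The label of the cells was checked against marker lists. The 16 MmSC markers, Pdgfra and Thy1 among them, were all measured and summed to 164600 and 167000 CPM with Osm, against 163900 and 196300 CPM with Il-1b. Of its members only Ly6a, which encodes the surface protein Sca-1, was called. It had 3583 and 3709 CPM with Osm, against 2520.5 and 1992 CPM with Il-1b, with a log2 change of 0.69 ± 0.13 (adjusted p = 0.000887), and the fit of these 4 libraries alone did not call it (adjusted p = 0.0506). Pdgfra, the receptor by which MmSCs are usually sorted, had 877 and 961 CPM with Osm, against 797 and 674 CPM with Il-1b, with an adjusted p of 0.137. Markers of other cells were near 0 or not called. The 10 leukocyte markers, Ptprc among them, summed to 0.431 and 0.281 CPM with Osm, against 3.54 and 2.71 CPM with Il-1b, the 7 neutrophil markers to 1.01 and 0 CPM with Osm, against 0.177 and 0.17 CPM with Il-1b, and the 8 macrophage markers to 14.1 and 8.71 CPM with Osm, against 9.9 and 6.27 CPM with Il-1b. In all 4 libraries 3 of the leukocyte and 4 of the neutrophil markers had no count. Among the markers of other cells that were tested, none was called, but many had too few counts for a test. Tested were 2 of 10 leukocyte, 3 of 8 macrophage, 3 of 8 endothelial and 2 of 7 satellite cell markers. A further 5 of 6 mural, 3 of 5 Schwann, 4 of 5 tenocyte and all 6 myofibre markers were tested. None of the 7 neutrophil markers was. The 5 tenocyte markers summed to 1041 and 1007 CPM with Osm, against 1504 and 878 CPM with Il-1b, so the first Il-1b library was the highest of the 4 in them, and the part of this in the genes below that were also highest in that library was not tested.

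No transcript of a gp130 receptor chain was called between the cytokines, while those of Stat2, Stat3 and Stat5a were. Of the 15 gp130 receptor and JAK-STAT genes, all tested, 3 were higher with Osm and 3 lower, against a background of 9.65% called, and their median log2 change was -0.005. Members of this and the later lists were chosen with earlier results of these data known. Shares set against all genes therefore only describe the lists. Osmr, the ligand-specific chain of the receptor for Osm, had 974 and 1143 CPM with Osm, 1089.9 and 944 CPM with Il-1b and 161 and 137 CPM with PBS. The Osm and Il-1b libraries overlapped, the log2 change was 0.06 ± 0.15 (adjusted p = 0.893), and both groups stood above PBS in every library. Il6st had 1133 and 870.1 CPM with Osm, against 685 and 875 CPM with Il-1b, so that the groups overlapped, and was not called (log2 0.36 ± 0.15, adjusted p = 0.15), though it was higher with Osm without the second Osm library (log2 0.55, adjusted p = 0.0435). None of the other 7 was called. Log2 changes were 0.13 for Lifr, the receptor chain for Lif, 0.05, -0.46 and -0.62 for the kinases Jak1, Jak2 and Tyk2, -0.09 and -0.01 for the receptor chains Il6ra and Il11ra1, and -0.07 for Stat5b. Jak2 was called lower without the second Osm library (log2 -0.84) and Tyk2 without the first Il-1b library (log2 -0.85).

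Stat2, part of the transcription factor complex that type I interferon activates, was higher with Osm. It had 282 and 294 CPM with Osm, against 94.7 and 119 CPM with Il-1b (log2 1.43 ± 0.14, adjusted p = 3.85e-07). Stat3 itself, the main STAT below gp130, had 946 and 883 CPM with Osm, 593 and 698 CPM with Il-1b and 218 and 202 CPM with PBS. Its groups did not overlap, with a log2 change of 0.50 ± 0.12 (adjusted p = 0.00751), but the call was lost without the first Il-1b library (log2 0.39, adjusted p = 0.0864) and with these 4 libraries alone (adjusted p = 0.111). Stat5a went the other way, with 116 and 94.4 CPM with Osm, against 322 and 246 CPM with Il-1b and a log2 change of -1.44 ± 0.20 (adjusted p = 3.51e-05). Stat3 and Stat5a lie side by side on chromosome 11 and overlap on opposite strands, and the strand setting of the counts is not given in the sources used here. The tyrosine phosphatase genes Ptpn2, whose product acts on JAKs and STATs, and Ptpn11, whose product binds gp130, were lower with Osm, with log2 changes of -0.90 and -0.75. Ptpn2 lost its call without the first Osm library (log2 -0.70) and without the first Il-1b library (log2 -0.57), and Ptpn11 lost it without the first Osm library (log2 -0.72), the second Osm library (log2 -0.73) and the second Il-1b library (log2 -0.41).

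The SOCS family, feedback inhibitors of JAK-STAT signalling, held 2 members higher with Osm and none lower among 8 tested (25% higher, against 3.95% of all genes). Socs3, which binds gp130 and blocks Jak activity there, lies at chr11:117966079-117970047 in GRCm38 and had 2956 and 2211 CPM with Osm, 808 and 693 CPM with Il-1b and 121 and 55.6 CPM with PBS. The 4 cytokine libraries did not overlap, and those after Il-1b still stood above PBS. The log2 change was 1.78 ± 0.29 (adjusted p = 0.000208). Cish, a Stat5 target that encodes another family member, had 61.5 and 70.9 CPM with Osm, against 12.6 and 27.8 CPM with Il-1b (log2 1.71 ± 0.39, adjusted p = 0.00512), and was not called without the first Il-1b library (log2 1.25, adjusted p = 0.0781). Socs1, an inhibitor of interferon receptors, had 21.5 and 10.7 CPM with Osm, against 23.5 and 39.3 CPM with Il-1b and was just short of the threshold (log2 -0.97 ± 0.31, adjusted p = 0.0511). It was called lower without the first Osm library (log2 -1.52, adjusted p = 0.0104) and without the first Il-1b library (log2 -1.29, adjusted p = 0.0146), and also with RLE scaling (adjusted p = 0.0495), in DESeq2 (adjusted p = 0.0246) and without a filter on low counts (adjusted p = 0.00318). The remaining members Socs2, Socs4, Socs5, Socs6 and Socs7 were not called, with log2 changes of 0.14, -0.18, 0.44, 0.08 and 0.38.

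Genes listed as STAT3 targets differed in both directions. Of 24, all tested, 4 were higher with Osm (16.7%, against 3.95% of all genes) and 3 lower (12.5%, against 5.7%), and their median log2 change was -0.11. Fgl2, which encodes a secreted fibrinogen-like protein with immunoregulatory activity, lies at chr5:21372642-21378374 and had 8127 and 6794 CPM with Osm, 533 and 308 CPM with Il-1b and 132 and 187 CPM with PBS. No Osm library came near an Il-1b library, and the log2 change was 4.15 ± 0.27 (adjusted p = 9.89e-10). Il4ra, a receptor chain for Il-4 and Il-13, had 814 and 749 CPM with Osm, against 403 and 441 CPM with Il-1b (log2 0.89 ± 0.15, adjusted p = 0.000233). Serpina3n, a secreted protease inhibitor, had 1619 and 1816 CPM with Osm, against 933 and 519 CPM with Il-1b (log2 1.24 ± 0.29, adjusted p = 0.0061), and Lrg1, a secreted glycoprotein, 4.88 and 11.9 CPM with Osm, against 1.41 and 1.19 CPM with Il-1b (log2 2.68 ± 0.63, adjusted p = 0.00705). Neither passed the threshold without the second Osm library (log2 1.17 for Serpina3n and 1.91 for Lrg1) or without the second Il-1b library (log2 0.88 for Serpina3n and 2.56 for Lrg1). Icosl, a costimulatory ligand for T cells, Hif1a, the oxygen-sensitive transcription factor, and Lbp, which binds lipopolysaccharide, were lower with Osm, with log2 changes of -2.47, -0.93 and -0.76. Lbp was not called without the first Osm library (log2 -0.53). Bcl3, also a partner of NF-kB, had 48.7 and 40.7 CPM with Osm, 56.2 and 73.05 CPM with Il-1b and 2.67 and 4.77 CPM with PBS and was not called (adjusted p = 0.0991), except without the first Il-1b library (log2 -0.71, adjusted p = 0.0468).

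Among the Il-1b signalling genes the receptor was not called and several kinases were. Of 18 genes listed, 17 were tested, 2 were higher with Osm (11.8%, against 3.95% of all genes) and 3 lower (17.6%, against 5.7%), and the median log2 change was -0.245. Il1r1, the signalling receptor for Il-1b, had 237 and 262 CPM with Osm, 234 and 157 CPM with Il-1b and 73.6 and 62.2 CPM with PBS. Osm and Il-1b libraries did not overlap but lay close, the log2 change was 0.35 ± 0.20 (adjusted p = 0.342), and all 4 stood above PBS. Irak2, a kinase that prolongs NF-kB signalling, lies at chr6:113638467-113695026 and had 0 and 1.26 CPM with Osm, 39.8 and 96.8 CPM with Il-1b and 6.36 and 6.96 CPM with PBS. Both Osm libraries lay below PBS and both Il-1b libraries above it, with a log2 change of -6.70 ± 0.54 (adjusted p = 1.96e-08). Irak3, an inhibitor of the pathway, had 251 and 258 CPM with Osm, against 874 and 1146 CPM with Il-1b (log2 -1.99 ± 0.19, adjusted p = 1.45e-07), and Map3k8, the kinase that links NF-kB1 to the MAP kinases, 65.5 and 70.5 CPM with Osm, against 151 and 161 CPM with Il-1b (log2 -1.20 ± 0.17, adjusted p = 3.11e-05). Irak4, the first kinase of the receptor complex, was higher with Osm. It had 47.97 and 46.2 CPM with Osm, against 21.7 and 21.4 CPM with Il-1b (log2 1.13 ± 0.20, adjusted p = 0.000388). Myd88, the adaptor, was higher by a log2 change of 0.42 ± 0.13 at an adjusted p of 0.0453, and lost the call without the first Osm library (log2 0.49), the second Osm library (log2 0.39) or the first Il-1b library (log2 0.28). Il1rap, Il1r2, Il1rn, Irak1, Traf6, Tollip, Map3k7, Tab2, Chuk, Ikbkb and Ikbkg were not called, and apart from Il1rn, with no count after Osm and 8 counts in all after Il-1b, their log2 changes lay between -0.44 for Irak1 and -0.01 for Il1r2.

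**Figure D2:**
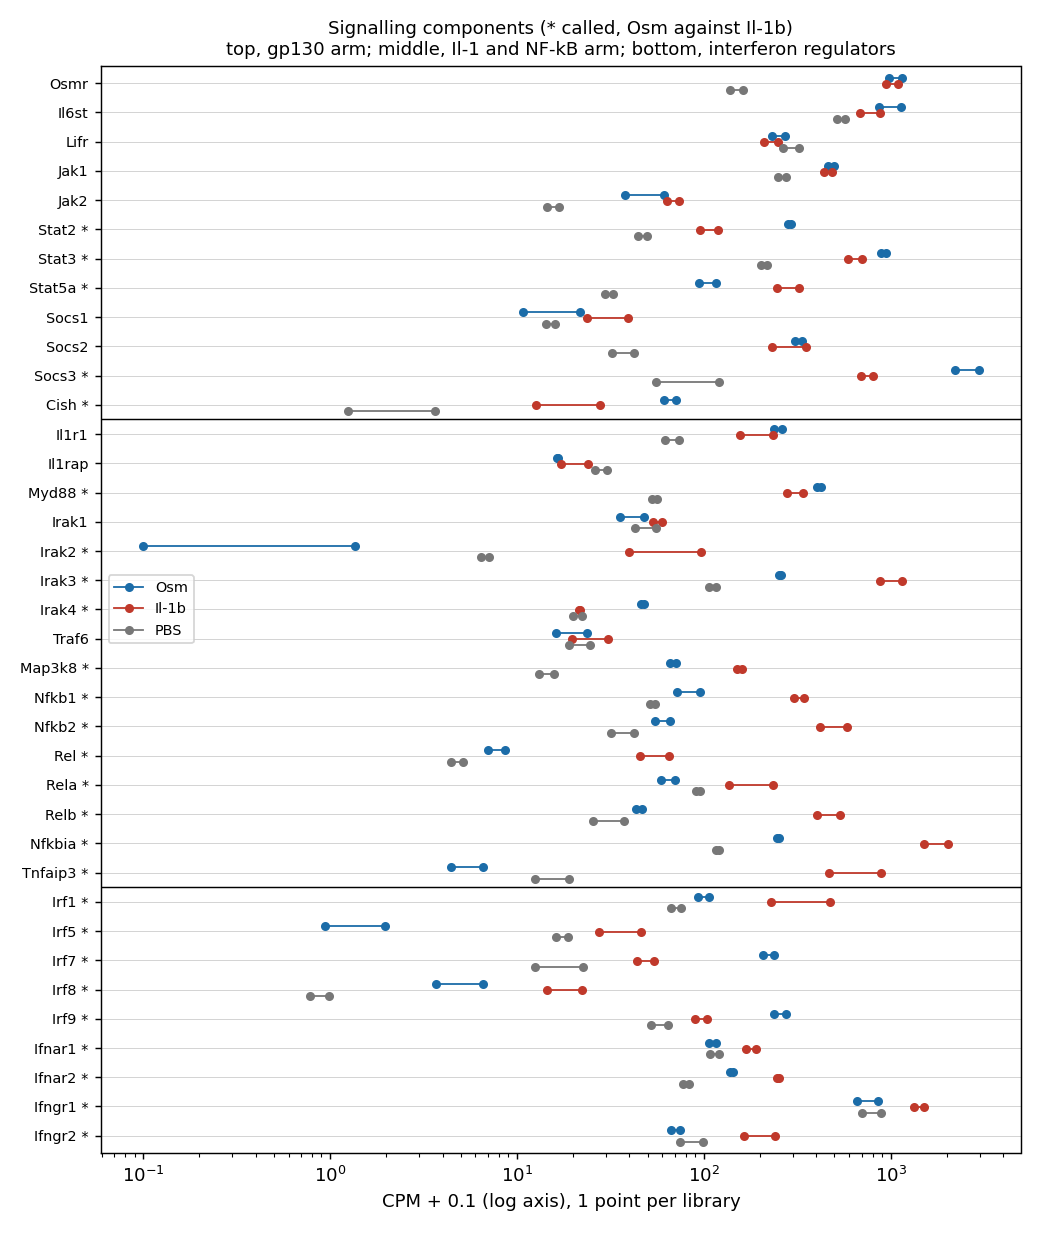
Points are single libraries, joined within a group, of the signalling genes on the y axis, by CPM + 0.1 on a log x axis, for Osm (blue), Il-1b (red) and PBS (grey). An asterisk marks a called difference between Osm and Il-1b. Osmr, Il1r1 and Jak1 have Osm and Il-1b points close together and above PBS, while Nfkb2, Relb, Nfkbia and Tnfaip3 are separated by a log2 change of -2.83 or more in size.

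NF-kB subunits and their inhibitors were nearly all lower with Osm. Of 17 genes, 15 were tested, 12 were lower with Osm and none was higher, against 5.7% of all genes called lower, and the median log2 change was -2.83. The count was 12 in each of the 4 fits that left out a library. Tnfaip3, the ubiquitin-editing inhibitor A20, lies at chr10:19000910-19015657 and had 6.46 and 4.35 CPM with Osm, 468 and 884 CPM with Il-1b and 18.9 and 12.4 CPM with PBS. The Osm libraries lay below PBS and the Il-1b libraries far above it, with a log2 change of -6.96 ± 0.39 (adjusted p = 1.17e-10). Nfkbia, the inhibitor IkBa whose promoter is shown above, had 245 and 252 CPM with Osm, 1508 and 2014 CPM with Il-1b and 116 and 119.9 CPM with PBS. Here both cytokine groups stood above PBS and did not overlap, and the log2 change was -2.83 ± 0.19 (adjusted p = 1.66e-09). Tnip1, a partner of A20, had 27.7 and 25.4 CPM with Osm, 423 and 664 CPM with Il-1b and 28.7 and 34.1 CPM with PBS (log2 -4.35 ± 0.21, adjusted p = 3.77e-11). The Il-1b libraries stood above PBS, while the Osm libraries lay close to it, a difference not called (log2 -0.24, Osm minus PBS).

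Among the subunits the log2 changes were -3.38 for Relb, -3.05 for Nfkb2, -2.83 for Rel, -1.95 for Nfkb1 and -1.52 for Rela. Relb, the subunit that pairs with p52, had 43.4 and 46.5 CPM with Osm, against 403 and 534 CPM with Il-1b (adjusted p = 1.5e-10). Rela, the main transactivating subunit, had 58.9 and 70.1 CPM with Osm, 136 and 234 CPM with Il-1b and 90.3 and 95.5 CPM with PBS, so that PBS lay between the cytokine groups. The difference of Osm from PBS was not called (log2 -0.53). The further inhibitors Nfkbie, Nfkbiz and Nfkbib had log2 changes of -3.97, -2.76 and -1.48, and Zc3h12a, the RNase Regnase-1 that degrades inflammatory transcripts, one of -4.06. The other 3 tested members, which are regulators of ubiquitin signalling, were not called.

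NF-kB target effectors were lower with Osm in 20 of 25 tested genes of 26 listed (80%, against 5.7% of all genes). This list, like the others, was chosen with earlier results of these data known. Again none was higher, and the median log2 change was -2.09. Icam1, the adhesion ligand for leukocyte integrins, had 231 and 314 CPM with Osm, 2872 and 4766 CPM with Il-1b and 52.4 and 77.7 CPM with PBS. The Osm libraries stood above PBS and the Il-1b libraries above both, with a log2 change of -3.81 ± 0.24 (adjusted p = 7.9e-10). Vcam1, the adhesion ligand for integrin a4b1, had 21.4 and 34.7 CPM with Osm, 582 and 626 CPM with Il-1b and 42.5 and 52.4 CPM with PBS. In this gene the Osm libraries lay below PBS, and the log2 change was -4.43 ± 0.22 (adjusted p = 4.31e-11). Tlr2, a receptor for bacterial lipoproteins, showed the same order with 12.1 and 16.7 CPM with Osm, 337 and 467 CPM with Il-1b and 25.05 and 29.05 CPM with PBS (log2 -4.80 ± 0.26, adjusted p = 9.27e-11). Ptx3, a secreted pattern-recognition protein, had 54.3 and 42.1 CPM with Osm, against 1463 and 983 CPM with Il-1b (log2 -4.66 ± 0.303, adjusted p = 1.02e-09). Cd40, the receptor for the T cell ligand CD154, and Ripk2, the kinase below Nod2, had log2 changes of -4.75 and -3.89. Log2 changes were -2.29 and -2.53 for the anti-apoptotic genes Birc2 and Birc3, -1.97 for Sod2, which detoxifies superoxide in mitochondria, and -1.94 for Ptgs2, which makes prostaglandin precursors. The other 5 tested effectors were not called.

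Neutrophil-attracting chemokines stood far lower with Osm than with Il-1b. Of 11 CXC chemokines, all tested, 6 were lower with Osm (54.5%, against 5.7% of all genes) and 1 was higher. Cxcl1, a ligand of Cxcr2 on neutrophils, lies at chr5:90891241-90893115 and had 108 and 87.9 CPM with Osm, 3089 and 2814 CPM with Il-1b and 19.6 and 15.96 CPM with PBS. Both cytokine groups stood above PBS and far from each other, with a log2 change of -4.91 ± 0.22 (adjusted p = 2.52e-11). Cxcl2, also a Cxcr2 ligand, at chr5:90903871-90905938, had 0.287 and 0.1404 CPM with Osm, against 192 and 196 CPM with Il-1b. These rest on 3 counts in all after Osm and 2242 after Il-1b, which makes it 911-fold lower with Osm, and the counting error (95%) allows 311-fold to 4420-fold (adjusted p = 5.41e-11). Cxcl5, another Cxcr2 ligand at chr5:90759360-90761624, had 0 and 0.843 CPM with Osm, 1966 and 222 CPM with Il-1b and 0.509 and 0.136 CPM with PBS. The groups did not overlap and the log2 change was -11.26 ± 1.24 (adjusted p = 1.52e-06), but the Il-1b libraries differed from each other, the first being the higher. Cxcl3 had no count after Osm and 380 counts after Il-1b, at least 77.2-fold lower with Osm, yet the Il-1b libraries had 66.8 and 0.339 CPM, and the call was lost without the first of them (fitted log2 -4.25, adjusted p = 0.266) or without the second Osm library (fitted log2 -10.77, adjusted p = 0.0501).

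Cxcl16, a membrane-bound chemokine for T cells, was also lower with Osm. It had 21.5 and 26.8 CPM with Osm, against 138 and 153 CPM with Il-1b (log2 -2.59 ± 0.18, adjusted p = 1.86e-09). Cxcl10, a ligand of Cxcr3 on T cells and an interferon-inducible gene, was lower with Osm, against the direction of most interferon-inducible genes below. It had 11.6 and 11.1 CPM with Osm, against 22.98 and 49.1 CPM with Il-1b (log2 -1.67 ± 0.41, adjusted p = 0.0099) and lost its call without the first Osm library (log2 -1.67), the second Osm library (log2 -1.62) or the second Il-1b library (log2 -1.01). Osm with Il-1b gave 298 and 500.4 CPM of Cxcl10, above every library of the single cytokines. Cxcl9, another Cxcr3 ligand, had 15.5 and 28.4 CPM with Osm, against 6.54 and 22.03 CPM with Il-1b and 352 and 359 CPM with the pair, and its Osm and Il-1b libraries overlapped (adjusted p = 0.471). Without the second Il-1b library Cxcl9 was higher with Osm (log2 1.75, adjusted p = 0.0372), as it was without a filter on low counts (log2 0.64, adjusted p = 0.038). Cxcl14, a chemokine common in resting stroma, was the 1 member higher with Osm. It had 2552 and 2014 CPM with Osm, against 1428 and 1156 CPM with Il-1b (log2 0.82 ± 0.17, adjusted p = 0.00287), and it was not called without the first Osm library (log2 0.67) or the second Il-1b library (log2 0.68). Cxcl11, Cxcl12 and Cxcl13 were not called, with log2 changes of -1.10, -0.56 and -2.91. Cxcl13 had 8.04 and 3.51 CPM with Osm, against 86.3 and 1.02 CPM with Il-1b, the first Il-1b library far above the other 3, and it was called lower without the second Il-1b library (log2 -3.90, adjusted p = 0.00245), while without the first the fitted log2 change was 2.48 and not called. Without a filter on low counts Cxcl12 (adjusted p = 0.00638) and Cxcl13 (adjusted p = 3.26e-15) were called lower. For Cxcl13 the log2 change stayed at -2.91 and the Il-1b libraries still lay on both sides of the Osm libraries, so its small p-value should not be read as agreement between libraries.

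Among 13 CC and CX3C chemokines 9 were tested, 3 were lower with Osm (33.3%, against 5.7% of all genes) and none was higher. Ccl2, the main monocyte chemoattractant, lies at chr11:82035571-82037453 and had 65.2 and 109 CPM with Osm, 1805 and 1879.7 CPM with Il-1b and 104 and 63.96 CPM with PBS. The Osm libraries were at the PBS level and the Il-1b libraries above both, with a log2 change of -4.40 ± 0.44 (adjusted p = 3.95e-07). Ccl7, a gene next to it that encodes a further monocyte attractant, had 385 and 399.5 CPM with Osm, 771 and 330.3 CPM with Il-1b and 12.8 and 17.3 CPM with PBS. Its Osm and Il-1b libraries overlapped and the difference was not called (log2 -0.49 ± 0.31, adjusted p = 0.419). Without the second Il-1b library it was called lower (log2 -0.98, adjusted p = 0.0488), as it was without a filter on low counts (log2 -0.48, adjusted p = 0.0294), and without the first the log2 change was 0.25. Ccl11, the eosinophil attractant eotaxin, had 1419 and 1251 CPM with Osm, 1440.5 and 1899.7 CPM with Il-1b and 413 and 455 CPM with PBS and was not called either (adjusted p = 0.331). Ccl19, a ligand of Ccr7, and Cx3cl1, a membrane-bound ligand for monocytes, were lower with Osm, with log2 changes of -1.88 and -1.88. Ccl8, Ccl5, Ccl9 and Ccl20 were not called. Ccl20 had no count after Osm and counts in only 1 Il-1b library, and Ccl5 was called lower without the first Il-1b library (fitted log2 -5.17). Without a filter on low counts both were called lower (adjusted p = 0.0115 for Ccl20 and 0.00582 for Ccl5).

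**Figure D3:**
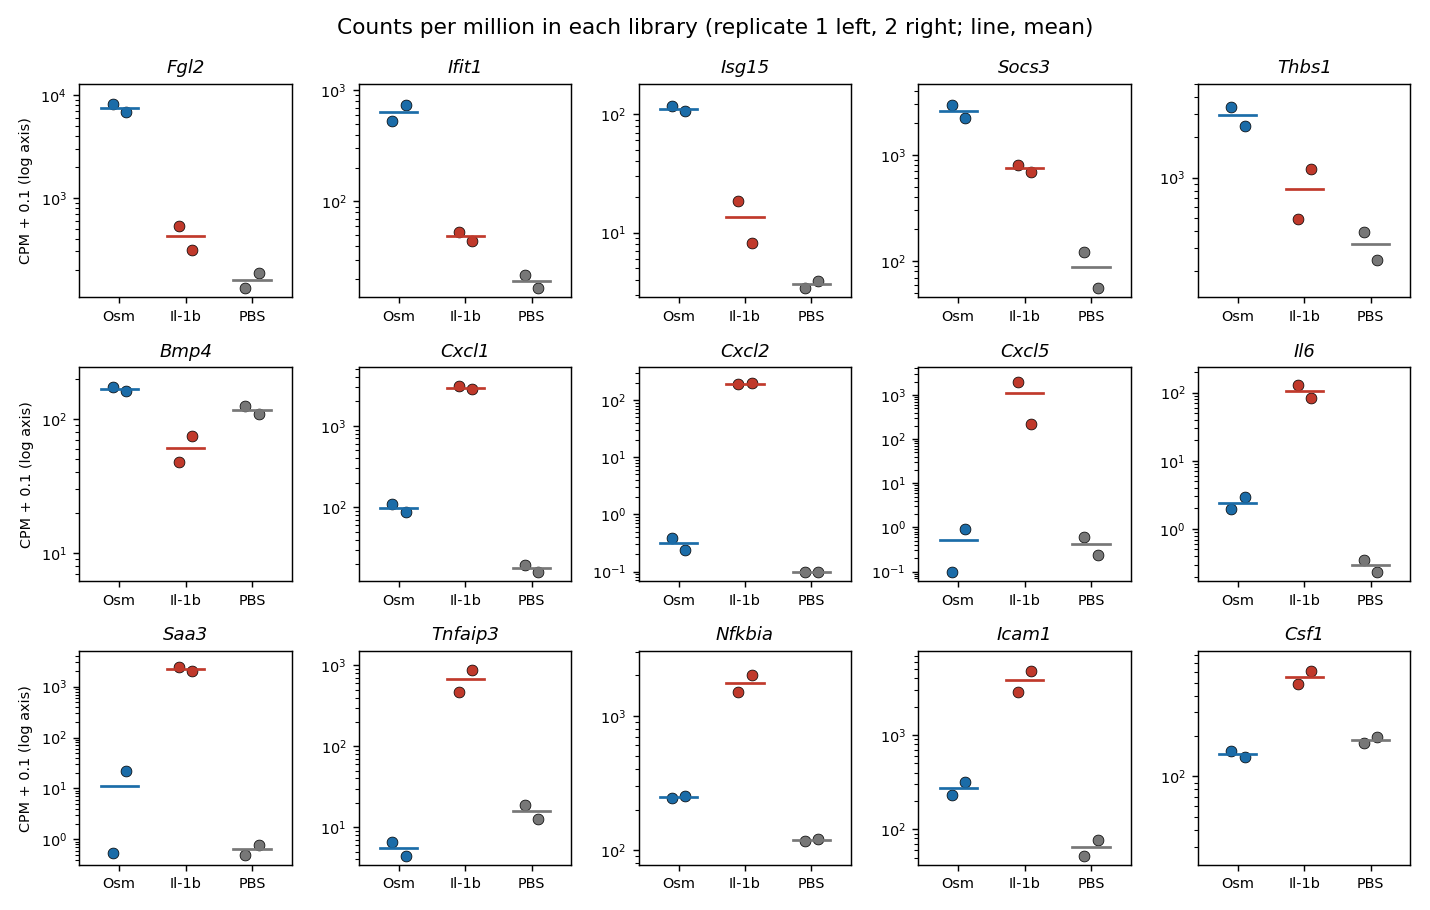
Each panel gives 1 gene, with CPM + 0.1 on a log y axis and 1 point per library (replicate 1 left, replicate 2 right, line at the mean) for Osm, Il-1b and PBS. Fgl2, Ifit1, Isg15, Socs3, Thbs1 and Bmp4 have both Osm points above both Il-1b points, and the other 9 genes have both below. Tnfaip3 and Csf1 have Osm points below PBS, and Bmp4 has Il-1b points below PBS. The difference of Osm from PBS was not called for Csf1.

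Cytokine and growth factor genes for leukocytes were also mostly lower with Osm. Of 20 listed genes 15 were tested, 8 were lower (53.3%, against 5.7% of all genes) and 1 was higher. Il6, which signals through the same gp130 chain as Osm, lies at chr5:30013114-30019981 and had 1.87 and 2.81 CPM with Osm, 131 and 83.7 CPM with Il-1b and 0.254 and 0.136 CPM with PBS. The Osm libraries stood above PBS and the Il-1b libraries far above both, with a log2 change of -5.51 ± 0.36 (adjusted p = 1.74e-09). Csf1, the growth factor of macrophages, had 154 and 140.1 CPM with Osm, 490.4 and 612 CPM with Il-1b and 177 and 198 CPM with PBS (log2 -1.91 ± 0.16, adjusted p = 3.39e-08). Il-1b stood above PBS, while Osm lay below it by a difference not called (log2 -0.35, Osm minus PBS). Csf3, the growth factor of neutrophils, had no count after Osm or PBS and 13.4 and 12.9 CPM with Il-1b, at least 30.9-fold lower with Osm than with Il-1b (adjusted p = 2.28e-05). Il34, an alternative ligand of the Csf1 receptor, had 11.8 and 17.97 CPM with Osm, against 74.2 and 112 CPM with Il-1b (log2 -2.64 ± 0.33, adjusted p = 6.87e-06).

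The lymphocyte cytokines Il7 and Il15 and the epithelial-type alarmin Tslp were lower with Osm, with log2 changes of -3.49, -1.15 and -1.85. Lif, another gp130 cytokine, had 1.01 and 0.421 CPM with Osm, 13.8 and 6.61 CPM with Il-1b and 11.1 and 9.001 CPM with PBS. In this gene the Il-1b libraries lay around PBS and the Osm libraries below it, with a log2 change of -3.81 ± 0.51 (adjusted p = 2.02e-05). Kitl, the ligand of the receptor Kit, was higher with Osm. It had 19.7 and 12.8 CPM with Osm, against 6.36 and 3.39 CPM with Il-1b (log2 1.73 ± 0.39, adjusted p = 0.00519), but was not called without the first Osm library (log2 1.42) or the second Il-1b library (log2 1.35). Il33, an alarmin made by stromal cells, had 906 and 831 CPM with Osm, 966 and 424 CPM with Il-1b and 107 and 129.96 CPM with PBS and was not called (adjusted p = 0.536). Its Il-1b libraries lay on both sides of the Osm libraries, and without the first of them Il33 was higher with Osm (log2 1.03, adjusted p = 0.00225). Il11, Clcf1, Il18, Tnfsf11 and Tnfsf13b were not called, at log2 changes of -0.57, -1.15, -0.54, 0.42 and 0.17.

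Interferon-inducible effectors were the list that stood highest with Osm. All 33 were tested, 25 were higher with Osm and 1 was lower, against 3.95% of all genes called higher, and the median log2 change was 2.20. Ifit1, an antiviral RNA-binding protein, lies at chr19:34640871-34650009 and had 532 and 732 CPM with Osm, 53.03 and 44.4 CPM with Il-1b and 21.6 and 16.5 CPM with PBS. The groups did not overlap, the Il-1b libraries stood above PBS, and the log2 change was 3.70 ± 0.25 (adjusted p = 1.34e-09). Isg15, a ubiquitin-like modifier, had 117 and 106 CPM with Osm, 18.6 and 8.14 CPM with Il-1b and 3.31 and 3.82 CPM with PBS (log2 3.06 ± 0.24, adjusted p = 1.46e-08). Iigp1, a GTPase that attacks the vacuoles of intracellular parasites, had 1105 and 1639 CPM with Osm, 152 and 93.7 CPM with Il-1b and 13.6 and 8.46 CPM with PBS (log2 3.48 ± 0.22, adjusted p = 9.89e-10). Log2 changes were 3.45 for Ifit3, 3.37 for Rsad2, the antiviral protein viperin, 3.23 and 3.00 for Oas2 and Oasl2, of the RNA-sensing synthetase family, and 2.91 and 2.20 for the GTPase genes Igtp and Irgm1. Ifit3 and Ifit3b are near-identical neighbours, members of the Gbp and Ifi200 families are closely related, and Igtp overlaps Irgm2, so counts of single members are uncertain.

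Ifit2 had 98.1 and 111 CPM with Osm, 17.1 and 13.1 CPM with Il-1b and 28.2 and 39.4 CPM with PBS, so the Il-1b libraries lay below PBS and the Osm libraries above it (log2 2.79 ± 0.22, adjusted p = 1.15e-08). Cmpk2, a mitochondrial nucleotide kinase next to Rsad2 on chromosome 12, showed the same order at 128 and 128 CPM with Osm, 9.37 and 9.32 CPM with Il-1b and 19.7 and 18.7 CPM with PBS (log2 3.77 ± 0.19, adjusted p = 4.31e-11). Pml, the organiser of nuclear bodies, did so too, with 185 and 165 CPM with Osm, 19.8 and 15.9 CPM with Il-1b and 44.5 and 50.05 CPM with PBS (log2 3.29 ± 0.17, adjusted p = 6.42e-11). The exception in the list was Gbp5, a guanylate-binding protein that promotes inflammasome assembly, which had 34.6 and 49.3 CPM with Osm, 211 and 325 CPM with Il-1b and 2.67 and 1.77 CPM with PBS and was lower with Osm (log2 -2.67 ± 0.22, adjusted p = 2.59e-08). Of its relatives on chromosome 3, Gbp7 was called higher with Osm, while Gbp2 and Gbp3 were not called and their groups overlapped. Gbp4, on chromosome 5, was also called higher with Osm (log2 3.15 ± 0.58, adjusted p = 0.000708). Gbp2 had 1199 and 1675 CPM with Osm, against 1028 and 1384 CPM with Il-1b, and Gbp3 had 184 and 268 CPM with Osm, against 184 and 215 CPM with Il-1b.

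Regulators of the interferon pathway went both ways, 6 higher with Osm and 7 lower among 17 tested (35.3% and 41.2%, against 3.95% and 5.7% of all genes). Irf7, which amplifies type I interferon, had 206 and 236 CPM with Osm, against 54.1 and 43.7 CPM with Il-1b (log2 2.18 ± 0.23, adjusted p = 6.55e-07). Irf9, the DNA-binding partner of Stat2, had 238 and 276 CPM with Osm, against 104 and 90.00 CPM with Il-1b (log2 1.41 ± 0.16, adjusted p = 2.36e-06). The other genes called higher were the feedback inhibitor Usp18 (log2 2.66), Nlrc5 (log2 2.73), the activator of class I antigen presentation genes, and the RNA sensors Ddx58 (log2 1.12) and Ifih1 (log2 2.12). Irf1, a target of both STATs and NF-kB, was lower with Osm. It had 93.5 and 107 CPM with Osm, 229 and 476 CPM with Il-1b and 75.8 and 66.96 CPM with PBS (log2 -1.81 ± 0.33, adjusted p = 0.000717). Irf5, an activator of inflammatory cytokines, had 1.87 and 0.843 CPM with Osm, 27.2 and 45.8 CPM with Il-1b and 16.1 and 18.5 CPM with PBS, with Osm below PBS and Il-1b above it (log2 -4.74 ± 0.52, adjusted p = 1.59e-06). Irf8 was lower (log2 -1.86), though not called without the first Osm library (log2 -1.46) or the second Il-1b library (log2 -1.50). The 4 receptor chains were all lower with Osm, with log2 changes of -0.68 for Ifnar1, -0.82 for Ifnar2, -0.91 for Ifngr1 and -1.51 for Ifngr2.

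Antigen presentation genes went both ways. Of 19 tested genes 3 were higher with Osm (15.8%, against 3.95% of all genes) and 4 lower (21.1%, against 5.7%). Tap1, which pumps peptides into the endoplasmic reticulum, had 363 and 456 CPM with Osm, 94.2 and 119.99 CPM with Il-1b and 25.6 and 26.5 CPM with PBS (log2 1.93 ± 0.17, adjusted p = 9.39e-08), and the immunoproteasome genes Psmb8 (log2 0.76) and Psmb9 (log2 1.20) were higher too. Tap1 and Psmb9 overlap on opposite strands. The class I heavy chain gene H2-K1 was lower with Osm. It had 506 and 499 CPM with Osm, 1176 and 1270.4 CPM with Il-1b and 349 and 339 CPM with PBS (log2 -1.28 ± 0.11, adjusted p = 8.4e-08). H2-Q6 and H2-Q7, further class I genes, had log2 changes of -4.50 and -3.60, and these closely related genes may share reads. Tapbp, the remaining gene called lower, lost its call without the first Osm library (log2 -0.40), the second (log2 -0.43) or the second Il-1b library (log2 -0.34). The call was also lost with the 4 libraries alone (log2 -0.42) and without a filter on low counts (log2 -0.42). B2m, the class I light chain, had 905 and 950.1 CPM with Osm, against 981 and 790.1 CPM with Il-1b and was not called (adjusted p = 0.825).

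**Figure D4:**
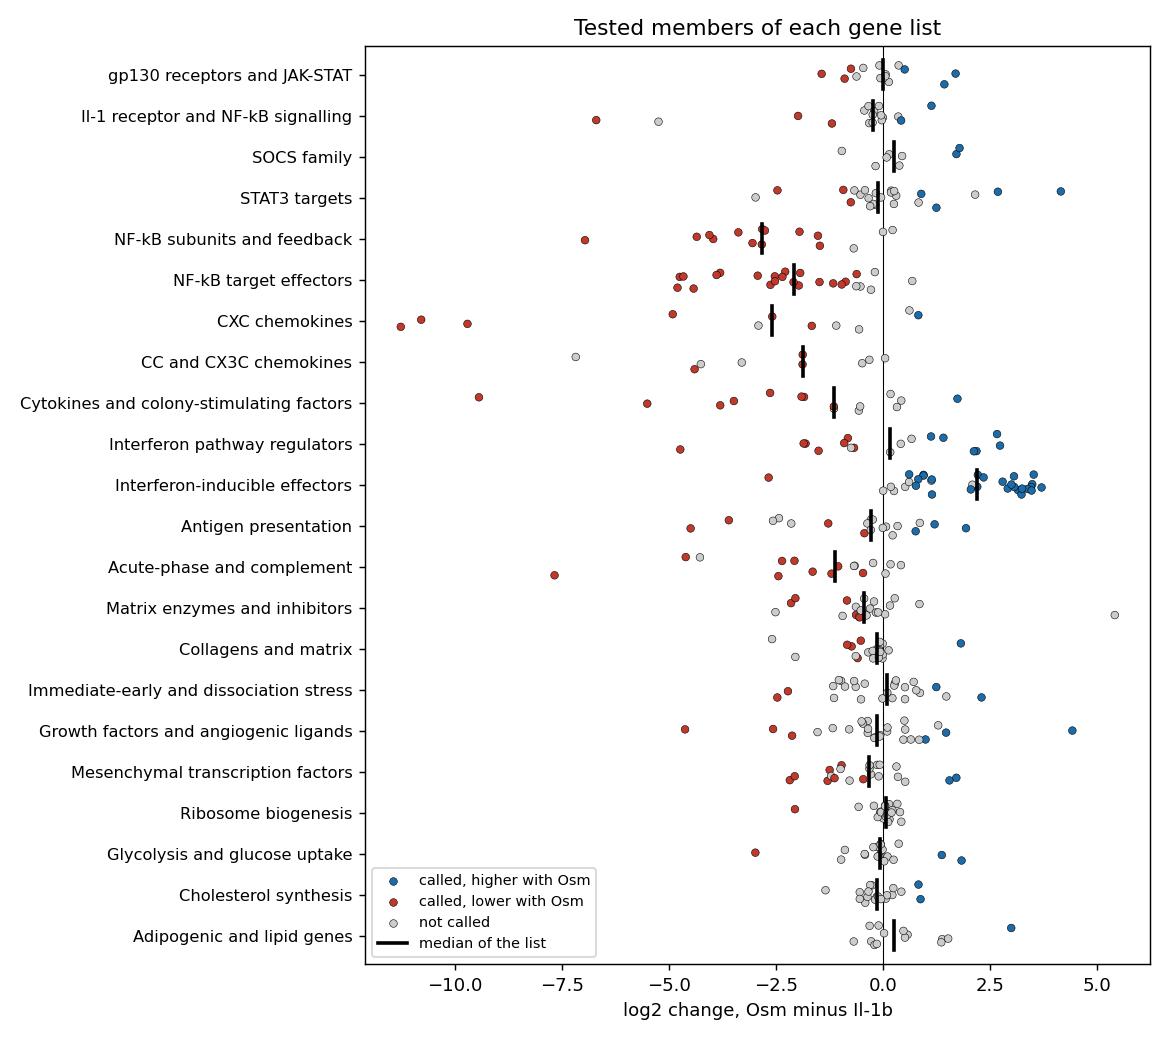
Each point is a tested member of the list on the y axis, by its fitted log2 change, Osm minus Il-1b (x axis), with called genes in blue (higher with Osm) or red (lower) and a black bar at the median of the list. The median is 2.20 for the interferon-inducible effectors, -2.83 for NF-kB subunits and feedback and -2.09 for NF-kB target effectors.

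Acute-phase and complement genes held 9 lower and none higher among 16 tested of 20 listed (56.2% lower, against 5.7% of all genes). Saa3, the serum amyloid A made by stromal cells and macrophages, lies at chr7:46711998-46715700 and had 0.431 and 21.5 CPM with Osm, 2481 and 2023 CPM with Il-1b and 0.381 and 0.682 CPM with PBS. The groups did not overlap, but the Osm libraries differed from each other, and the log2 change was -7.67 ± 0.63 (adjusted p = 2.52e-08). Lcn2, the iron-withholding protein lipocalin, had 12.2 and 4.49 CPM with Osm, against 245 and 163 CPM with Il-1b (log2 -4.61 ± 0.59, adjusted p = 1.16e-05). Cp, the copper-carrying ferroxidase, had 191 and 203 CPM with Osm, against 1015 and 1008 CPM with Il-1b (log2 -2.36 ± 0.17, adjusted p = 4.97e-09), and Cfb, of the alternative complement pathway, 19.96 and 20.4 CPM with Osm, against 112 and 108 CPM with Il-1b (log2 -2.45 ± 0.24, adjusted p = 3.65e-07). Steap4, which reduces metal ions, had 1909 and 2021 CPM with Osm, 4956 and 4113 CPM with Il-1b and 474 and 423 CPM with PBS, and Slc39a14, a zinc and iron transporter, had 218 and 229.6 CPM with Osm, 505 and 423 CPM with Il-1b and 18.7 and 18.7 CPM with PBS. Both stood above PBS with either cytokine and were lower with Osm than with Il-1b (log2 -1.21 for Steap4 and -1.05 for Slc39a14). Saa1 and Saa2 were also lower (log2 -2.07 and -1.65), Saa2 not without the second Osm library (log2 -1.40), and these near-identical copies may share reads. C3, the central complement component, was not called (log2 -0.68 ± 0.24, adjusted p = 0.0857), except without the first Osm library (log2 -1.16, adjusted p = 0.00729), with a replicate block (log2 -0.72, adjusted p = 0.00734) and without a filter on low counts (log2 -0.67, adjusted p = 2.55e-06), where it was called lower.

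Growth factors differed in both directions, 3 higher and 3 lower with Osm among 26 tested of 28 (11.5% each way, against 3.95% and 5.7% of all genes). Bmp4, a bone morphogenetic protein, had 175 and 162 CPM with Osm, 47.5 and 74.1 CPM with Il-1b and 126 and 108 CPM with PBS. PBS lay between the groups, and the log2 change was 1.47 ± 0.22 (adjusted p = 6.11e-05). Bmp2, a related ligand, was lower with Osm. It had 12.8 and 8.004 CPM with Osm, 31.1 and 59.7 CPM with Il-1b and 43.5 and 33.96 CPM with PBS, and here the Il-1b libraries lay around PBS and the Osm libraries below it (log2 -2.13 ± 0.35, adjusted p = 0.000232). Bdnf, a neurotrophin, was higher with Osm. It had 8.19 and 11.1 CPM with Osm, against 0.5303 and 0.339 CPM with Il-1b (log2 4.42 ± 0.61, adjusted p = 3.51e-05). Igf1, a growth factor for muscle fibres, was higher with Osm. It had 429 and 427 CPM with Osm, 252 and 179.8 CPM with Il-1b and 299.6 and 284 CPM with PBS (log2 0.99 ± 0.18, adjusted p = 0.000617), with PBS between the groups. Pgf, a Vegf family ligand, was lower (log2 -2.57).

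Among 26 collagen and matrix genes, all tested, 1 was higher with Osm (3.85%) and 4 were lower (15.4%), against 3.95% and 5.7% of all genes, with a median log2 change of -0.14. Thbs1, a matricellular protein that activates Tgfb, was the 1 higher with Osm. It had 3379.5 and 2436 CPM with Osm, 494 and 1159.6 CPM with Il-1b and 396 and 242 CPM with PBS (log2 1.81 ± 0.33, adjusted p = 0.00072). Col5a1 and Col5a3, chains of a collagen that nucleates fibrils, were lower (log2 -0.60 and -0.84), as were Col4a2 (log2 -0.74), of basement membranes, and Fbn1 (log2 -0.52), of microfibrils. All 4, in this order, lost the call without the second Osm library (log2 -0.63, -0.86, -0.38 and -0.65) and without the second Il-1b library (log2 -0.47, -0.54, -0.55 and -0.35), and all but Col4a2 without the first Osm library (log2 -0.52 for Col5a1, -0.77 for Col5a3 and -0.36 for Fbn1). Among matrix enzymes 5 of 22 tested were lower with Osm (22.7%) and none was higher. Mmp3, the protease stromelysin, had 217 and 141 CPM with Osm, against 1392 and 197 CPM with Il-1b, and the call (log2 -2.15 ± 0.62, adjusted p = 0.0291) rested on the first Il-1b library, since without it the log2 change was -0.14. It was also lost without the first Osm library (log2 -2.47), without the second (log2 -1.87) and in DESeq2 (adjusted p = 0.0584). The protease genes Adamts9 and Plat, which encodes tissue plasminogen activator, were lower (log2 -2.05 and -0.85). Mmp2, gelatinase A, was lower (log2 -0.63), but not without the second Osm library or the second Il-1b library (log2 -0.52 in both). Plaur, the urokinase receptor, was lower (log2 -0.55) and lost its call without any 1 library, with log2 changes from -0.55 to -0.51.

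Transcription factors of mesenchymal cells were called in 9 of 21 tested genes of 22, 2 higher and 7 lower with Osm (9.52% and 33.3%, against 3.95% and 5.7% of all genes). Meox1, a homeobox factor, had 39.2 and 48.7 CPM with Osm, 139 and 229 CPM with Il-1b and 74.5 and 106 CPM with PBS, with PBS between the groups (log2 -2.07 ± 0.25, adjusted p = 4.54e-06). Its relative Meox2 had 61.04 and 75.5 CPM with Osm, 159 and 166 CPM with Il-1b and 233 and 261 CPM with PBS, so that both cytokine groups lay below PBS and Osm the lower (log2 -1.25 ± 0.16, adjusted p = 1.22e-05). Osr1, a factor of fibro-adipogenic progenitors, had 235 and 218 CPM with Osm, 577 and 536 CPM with Il-1b and 94.8 and 83.5 CPM with PBS, both groups above PBS (log2 -1.298 ± 0.18, adjusted p = 2.63e-05). Zeb1, a zinc finger repressor, was lower (log2 -0.97). Snai1, a driver of mesenchymal transition, was higher with Osm. It had 42.4 and 38.1 CPM with Osm, 18.7 and 5.93 CPM with Il-1b and 38.02 and 28.4 CPM with PBS (log2 1.71 ± 0.35, adjusted p = 0.00226). The remaining calls, Osr2 higher and Runx1, Nfib and Foxp2 lower, were each lost without at least 2 of the 4 libraries. Without the first Osm library the log2 changes were -1.12 for Runx1, -0.33 for Nfib and -1.88 for Foxp2, without the second Osm library they were 1.13 for Osr2, -1.11 for Runx1 and -2.50 for Foxp2, without the first Il-1b library 1.15 for Osr2 and -0.37 for Nfib, and without the second Il-1b library -1.66 for Foxp2.

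Lists for basic cell functions came next. Immediate-early and dissociation stress genes had 2 higher and 2 lower with Osm among 25 tested (8% each way, against 3.95% and 5.7% of all genes), with log2 changes of 1.24 for Egr1, 2.296 for Egr2, -2.47 for Egr3 and -2.22 for Fosl1. Egr3 was not called without the first Osm library (log2 -1.85) or the first Il-1b library (log2 -2.24), nor Fosl1 without the second Osm library (log2 -1.98) or the first Il-1b library (log2 -1.73). Egr1, a factor induced by growth factor signalling, had 960.5 and 994 CPM with Osm, against 396 and 432 CPM with Il-1b (adjusted p = 0.00399), while Fos, Jun and Atf3, which also rise when tissue is digested, were not called (log2 0.86, 0.21 and 0.77). Without a filter on low counts Fos (adjusted p = 8.64e-06) and Atf3 (adjusted p = 0.00256) were called higher with Osm. Their log2 changes there, 0.88 and 0.80, were close to those of the main fit, so the smaller p-values should not be read as better agreement between libraries. Of 22 ribosome biogenesis genes 1 was lower (4.55%), Rrs1 at 51.4 and 27.9 CPM with Osm, against 139 and 192 CPM with Il-1b (log2 -2.06 ± 0.26, adjusted p = 8.34e-06), and the list summed to 4546 and 4043 CPM with Osm, against 4565 and 3906 CPM with Il-1b and 841 and 869 CPM with PBS. Of 20 tested glycolysis genes, the glucose transporter gene Slc2a1 and the regulator Pfkfb4 were higher with Osm (log2 1.83 and 1.37; 10% of the list), and the regulator Pfkfb3 was lower, with 22.3 and 29.6 CPM with Osm, against 169.5 and 242 CPM with Il-1b (log2 -2.98 ± 0.22, adjusted p = 6.35e-09). In the cholesterol list 2 of 19 tested genes were higher (10.5%), among them Cyp51, a sterol demethylase (log2 0.82), and in the adipogenic list Lipg, the endothelial lipase, was (log2 2.99) among 14 (7.14%). Without the second Osm library Pfkfb4 (log2 1.15) and Cyp51 (log2 0.93) were not called. The call was also lost without the first Il-1b library for Pfkfb4 (log2 1.19), without the second Il-1b library for Pfkfb4 (log2 1.57) and Cyp51 (log2 0.41), and without the first Osm library for Cyp51 (log2 0.75).

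Beside the lists, the 15 highest and the 15 lowest fitted changes were named among called genes whose average log2 CPM reached 3 and whose Osm and Il-1b libraries did not overlap. Of the 15 highest, 14 are reported here. Cmpk2, Ifit1, Ifit3, Ifit3b, Iigp1, Rsad2, Pml, Ifi208 and the pseudogene Ifi203-ps are interferon-inducible genes or relatives of such genes, and the others are Fgl2, Csf2rb, Pkig, Batf3 and Rab3il1. Ifit3b, Ifi203-ps and Ifi208 had log2 changes of 3.77, 3.35 and 3.24. Pkig, an inhibitor of protein kinase A, had 109.6 and 126 CPM with Osm, 9.02 and 10.8 CPM with Il-1b and 14.4 and 13.2 CPM with PBS (log2 3.56 ± 0.17, adjusted p = 3.77e-11). The Il-1b libraries lay below PBS, by a difference not called (log2 -0.47, Il-1b minus PBS). Batf3, a transcription factor known from dendritic cells, had 28.4 and 26.7 CPM with Osm, 2.298 and 2.54 CPM with Il-1b and 0 and 0.955 CPM with PBS (log2 3.50 ± 0.48, adjusted p = 2.47e-05). Rab3il1, an exchange factor for Rab proteins, had 157 and 142 CPM with Osm, 7.42 and 20.3 CPM with Il-1b and 128 and 168 CPM with PBS, so the Osm libraries lay among the PBS values and the Il-1b libraries below both (log2 3.42 ± 0.41, adjusted p = 4.32e-06). Csf2rb, the shared receptor chain for Gm-csf, Il-3 and Il-5, had 9.48 and 91.98 CPM with Osm, against 2.47 and 5.08 CPM with Il-1b, and the call (log2 3.73 ± 0.91, adjusted p = 0.0107) was lost without the second Osm library (log2 1.33, adjusted p = 0.485), without the first Il-1b library (log2 3.31) and without the second (log2 4.35). Csf2rb has a close copy in mouse, Csf2rb2, with which it may share reads.

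Of the 15 lowest, Cxcl5, Cxcl2, Saa3, Tnfaip3, Irak2, Il6, Cxcl1, Tlr2 and Cd40 are described above, and the others are Nos2, Acod1, Il1rl1, Slc43a2, Slc2a6 and Rnd1. Nos2, the inducible nitric oxide synthase, had 0.287 and 0 CPM with Osm, against 21.4 and 53.9 CPM with Il-1b, or 2 counts against 439. It was 267-fold lower with Osm, and the counting error (95%) allows 73.6-fold to 2220-fold (adjusted p = 3.86e-06). Acod1, which makes itaconate, had 0.144 and 0 CPM with Osm, against 4.24 and 17.1 CPM with Il-1b, or 1 count against 125. It was 152-fold lower with Osm, and the counting error allows 26.8-fold to 6060-fold (adjusted p = 3.51e-05). Il1rl1, the receptor for Il-33, had 0.144 and 2.67 CPM with Osm, against 291 and 15.9 CPM with Il-1b, with the first Il-1b library the higher, and the call (log2 -6.74 ± 1.48, adjusted p = 0.00399) was lost without that library (log2 -3.48) or without the first Osm library (log2 -5.81). Slc43a2, an amino acid transporter, had 0 and 0.702 CPM with Osm, 34.3 and 44.1 CPM with Il-1b and 6.23 and 7.500 CPM with PBS, with Osm below PBS and Il-1b above it (log2 -6.71 ± 0.54, adjusted p = 1.91e-08). Slc2a6, a member of the glucose transporter family, had 0.287 and 0.843 CPM with Osm, against 32.9 and 66.3 CPM with Il-1b (log2 -6.40 ± 0.58, adjusted p = 9.39e-08). Rnd1, a GTPase-like protein that loosens the actin skeleton, had 27.6 and 22.5 CPM with Osm, 648 and 821 CPM with Il-1b and 0.763 and 2.32 CPM with PBS, both groups above PBS (log2 -4.87 ± 0.27, adjusted p = 1.14e-10).

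Libraries from mice given both cytokines place genes relative to each cytokine alone, as levels without a test. Over the 910 genes called lower, the pair lay between and nearer Il-1b in 37.3% (15.7% of all genes tested). It lay above both in 35.4% (32.7%), between and nearer Osm in 21.1% (13.8%) and below both in 6.26% (37.9%). Called genes were chosen for a gap between the same Osm and Il-1b libraries. A wider gap by itself leaves more room for the pair to fall between. The shares of all genes tested are therefore no background for those of called genes, and no excess is read from them. Over the 630 called higher, the shares were 30.3% nearer Osm, 29.7% nearer Il-1b, 20.5% above both and 19.5% below both. The genes that follow are examples. Of the lower genes, Cxcl1 had 2660.2 and 3362 CPM with the pair, Tnfaip3 654 and 919.9 CPM and Il6 92.4 and 134 CPM, near the Il-1b libraries and not the Osm ones. Slc43a2 had 5.88 and 5.32 CPM with the pair, near PBS, and Rnd1 had 1362 and 1464 CPM, above both single cytokines. Of the higher genes, Ifit1 had 791 and 756 CPM with the pair and Rsad2 58.98 and 74.3 CPM, near the Osm libraries. Fgl2 had 4483 and 3763 CPM, below the Osm libraries and above the Il-1b ones, and Rab3il1 had 9.49 and 15.3 CPM, at the Il-1b level. Bmp4 had 27.3 and 38.3 CPM with the pair, below both. The scaling factors of the PBS libraries, 1.175 and 1.179, lay outside the range of 0.904 to 0.996 of the Osm and Il-1b libraries, and those of the pair were 0.882 and 0.853, so levels across these groups rest on that scaling.

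**Figure D5:**
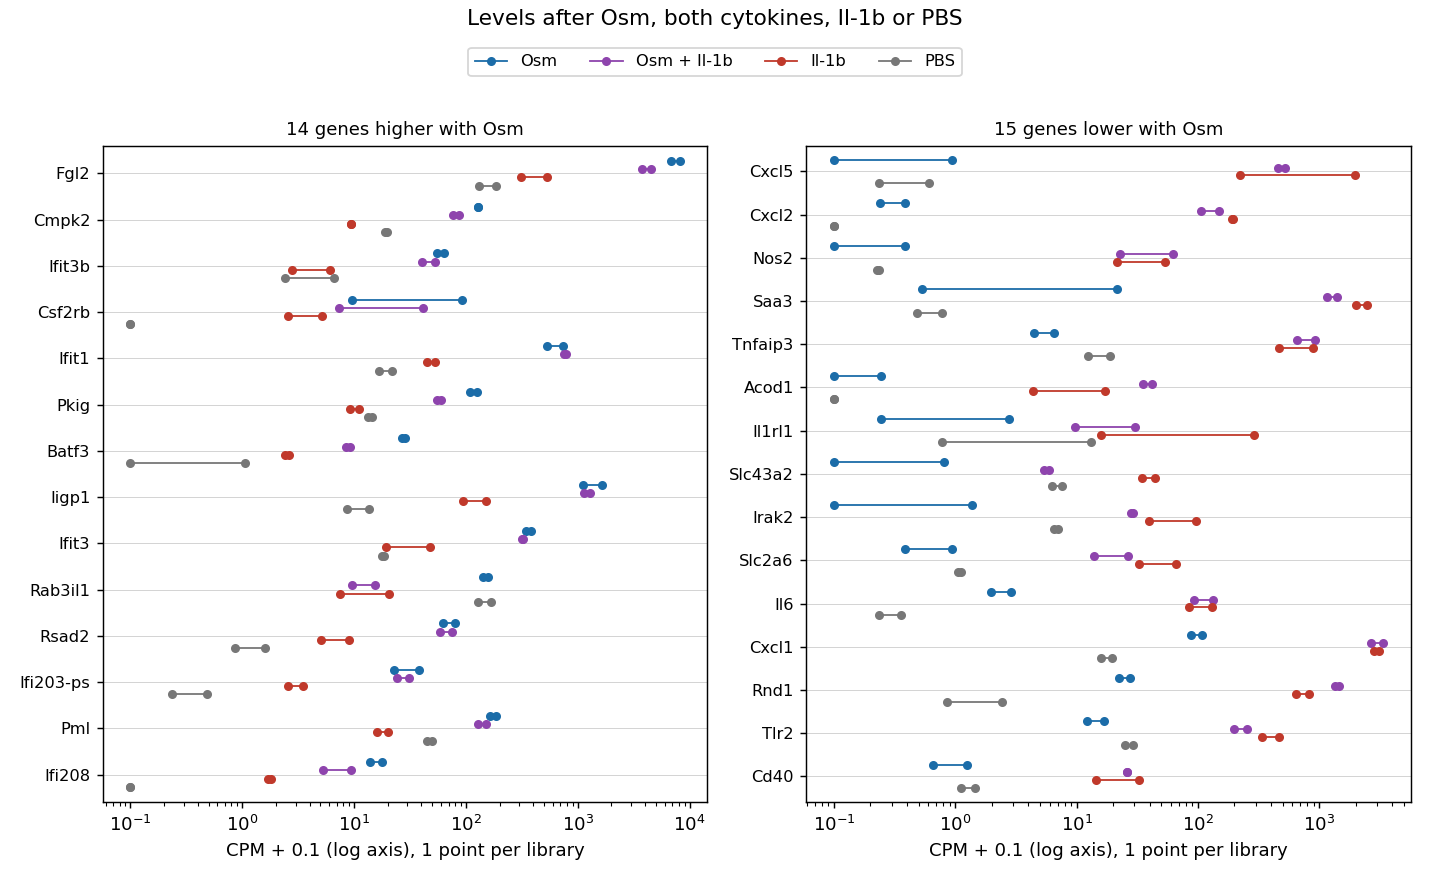
The 14 genes described as higher with Osm (left) and the 15 described as lower (right), ordered by size of change, with CPM + 0.1 on a log x axis and 1 point per library joined within a group, for Osm, Osm with Il-1b, Il-1b and PBS. With both cytokines Ifit1 and Rsad2 lie near the Osm points and Rab3il1 at the Il-1b points (9.49 and 15.3 CPM against 7.42 and 20.3 CPM), while Cxcl1, Tnfaip3 and Il6 lie near the Il-1b points.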

How the data were processed

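RNA-seq libraries from MmSCs were counted per gene and the authors deposited the raw counts in a single table. Reads were processed with STAR 2.7.3a and featureCounts on GRCm38 (mm10), per the submitters' processing notes. Gene positions here are from GENCODE M21. The authors' annotation release, strand setting and handling of multi-mapped reads were not given in the sources used here. Libraries were grouped by their labels. All 21 libraries (11 groups) of the cytokine injection experiment were fitted together with edgeR 4.0.16 in R 4.3.3, after a filter at a minimum count of 10 and TMM scaling, so that the groups share an estimate of the spread. Osm minus Il-1b was tested by the quasi-likelihood test, with p-values adjusted by Benjamini-Hochberg over all genes tested, with calls made under an adjusted p of 0.05. Where a difference from PBS is said not to be called, the same fit, test and threshold were used. CPM are on TMM-scaled library totals. Errors of log2 changes are standard errors of the fit. Intervals of ratios at 1 to 3 counts, and lower bounds at 0 counts, which use a floor of 3 counts per library, cover counting error only. With 2 libraries a group, both values are given in place of a mean. Named genes were the 15 highest and 15 lowest changes under the rule stated with them and members of the lists. Members and lists were chosen with earlier results of these data known. Alternatives were other scalings, filters of no minimum and of 30 counts, DESeq2 1.42.0, the 4 libraries alone, a replicate block, a test against a 1.5-fold change and leaving out each library. A few genes, though counted among the calls, are not reported here by name.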

Additional observations from a re-analysis of the deposited data

How the results depend on the processing

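The count of 1540 called genes was 1542 with RLE scaling, 1536 with upper-quartile scaling, 1652 in DESeq2, 1676 without a filter, 1581 at a minimum of 30 counts and 1126 with the 4 libraries alone. Without 1 library it was between 1010 and 1515, with 437 to 542 genes higher and 573 to 973 lower with Osm, 5 to 9 STAT3 targets, 12 NF-kB feedback genes throughout, 18 to 20 effectors and 24 to 27 interferon-inducible effectors. Against a change of 1.5-fold, 749 genes were called, 263 higher and 486 lower, 3 of them STAT3 targets. Osm and Il-1b libraries of the same replicate number shared little deviation across genes (correlation 0.033, and -0.037 to 0.14 over all groups). The labels do not say whether equal numbers mean a shared day or sort, and a low correlation cannot exclude it. A fit with the replicate number as a block called 1578 genes, 1516 of them shared with the main count. Of the 178 called genes followed, 125 were called in the same direction under all alternatives that gave a value. Calls were lost without a filter for Myd88, Tapbp, Plaur and Nfib, with upper-quartile scaling for Plaur and Fbn1, at a minimum of 30 counts for Fbn1, in DESeq2 for Mmp3, and with the 4 libraries alone for 17 genes, Stat3, Ptpn11, Myd88, Traf2, Mmp3 and Cyp51 among them (adjusted p between 0.0506 and 0.19). Calls were gained without a filter for 10 genes (Socs1, Ccl5, Ccl7, Ccl20, Cxcl9, Cxcl12, Cxcl13, C3, Fos and Atf3). Their log2 changes stayed close to those of the main fit, so these gains should not be read as better agreement between libraries.

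Signs turned, among the genes followed, only in genes that were not called. Without 1 library at a time the log2 change ran from -0.27 to 0.092 for Ikbkb, -0.10 to 0.10 for Il11ra1, -0.50 to 0.74 for Il1r2, -0.33 to 0.16 for Il6ra, -0.24 to 0.13 for Stat5b, -0.27 to 0.21 for Tab2, -3.87 to 4.32 for Tnfsf11, -0.049 to 0.20 for Osmr and -0.17 to 0.29 for Ccl8. It ran from -0.10 to 0.46 for Gbp3, -0.13 to 0.48 for Socs2, -0.98 to 0.25 for Ccl7, -0.005 to 1.75 for Cxcl9, -0.018 to 0.14 for Jak1, -0.49 to 0.036 for Chuk, -1.80 to 0.034 for Clcf1, -3.90 to 2.48 for Cxcl13 and -6.25 to 0 for Il1rn. For the rest the range was -0.15 to 1.03 for Il33, -0.20 to 0.088 for Thy1, -0.081 to 0.23 for B2m, -0.25 to 0.19 for Ikbkg, -1.20 to 0.63 for Il11, -0.13 to 0.55 for Tnfsf13b and -0.63 to 0.016 for Traf6. The log2 changes of Il11ra1 and Il1r2, close to 0, were 0.018 and 0.011 with upper-quartile scaling, 0.014 and 0.009 without a filter, 0.008 and 0.005 at a minimum of 30 counts, 0.011 and 0.005 with the 4 libraries alone and 0.003 and 0.030 with the replicate block.

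The values rest on 2 libraries a group, and the labels do not say whether these came from separate mice. Genes with few counts in most libraries were not tested in the main fit, so it says nothing on a difference in them. The cause of each lost or gained call was not tested. Levels with PBS and with both cytokines rest on scaling factors further from 1 than those of the compared groups.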
